A study of Mus musculus with 4 samples.

Results

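The SRF and YAP target genes described here are 10 genes, namely the factors Srf, Mrtfa (formerly Mkl1) and Yap1 and the targets or feedback genes Ccn1 (formerly Cyr61), Ccn2 (formerly Ctgf), Ankrd1, Amotl2, Lats2, Thbs1 and Fhl2. They were chosen by name, as every probe set that the array annotation assigns to 1 of these genes and to no other, which gave 22 probe sets for 10 of the 18194 genes with such a probe set. Each of 4 mouse embryonic stem cell lines was measured on 1 Affymetrix mouse expression array. The cKO group is 2 lines with a conditional knockout allele of UTX (cKO1 and cKO2), and the KO group is 2 lines in which UTX is knocked out (KO1 and KO2). UTX is a histone demethylase encoded by Kdm6a. All 4 lines had been kept on irradiated embryonic fibroblast feeders in medium with 15% serum and 1000 u/ml LIF and were then passaged on 0.1% gelatin to remove the feeders. How the KO lines were made, and whether a KO line came from the cKO line of the same number, is not given in the sources used here. KO was compared with cKO to see which genes differ where UTX is lost. With 1 array per line, p-values measure the spread between samples only, and some of it may be technical.

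YAP is a transcriptional coactivator that shuttles between cytoplasm and nucleus. The Hippo kinases of the LATS family phosphorylate it and keep it out of the nucleus, and in the nucleus it acts through the TEAD family of DNA-binding proteins on genes such as Ccn1, Ccn2 and Ankrd1. SRF binds DNA at the CArG box and is switched on by MRTF-A, which is released when monomeric actin is used up in filaments, so that both factors respond to cell shape and tension. In embryonic stem cells YAP activity has been studied for its part in self-renewal and differentiation.

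The sites that define these pathways can be read in the promoters of the members. RefSeq promoter windows (GRCm38.p6), from 250 bases before to 50 bases after a transcription start, matched 8 of the 10 genes in 11 windows, and Ccn2 and Thbs1 had none in the table used. A CArG box lay in the windows of Srf and Fhl2, in 3 of the 11 windows, against 1.63% of all 32851 windows. The TEAD site GGAATG, searched on both strands, lay in windows of Ankrd1, Ccn1, Amotl2, Yap1 and Lats2, in 5 of the 11 windows, against 14.7% of all windows. The AP-1 site TGANTCA, also searched on both strands, lay in 0 of the 11 windows and in 7.81% of all windows. The 3 motifs have no overlapping matches here, a match is a description of the letters only, and the arrays did not measure binding. The stretches below, shown because they hold these sites, run 5′ to 3′ on the strand of the gene, with the CArG box or the TEAD site (GGAATG or its reverse complement CATTCC) in capitals. They come from chr19:36119950-36120064 (Ankrd1, minus strand), chr3:145650036-145650135 (Ccn1, minus), chr9:102717727-102717756 (Amotl2, plus), chr9:8004720-8004749 (Yap1, minus), chr17:46556215-46556244 (Srf, minus), and chr1:43196838-43196867 and chr1:43163973-43164002 (starts 1 and 2 of Fhl2, minus).
Ankrd1: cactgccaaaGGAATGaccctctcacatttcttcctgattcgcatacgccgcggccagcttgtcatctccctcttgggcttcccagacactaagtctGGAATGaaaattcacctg
Ccn1: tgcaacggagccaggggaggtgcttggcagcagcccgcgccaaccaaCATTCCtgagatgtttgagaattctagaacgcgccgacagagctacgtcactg
Amotl2: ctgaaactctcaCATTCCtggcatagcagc
Yap1: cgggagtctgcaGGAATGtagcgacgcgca
Srf: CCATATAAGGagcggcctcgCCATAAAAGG
Fhl2, start 1: catttagagaCCAAAAAAGGcttgcaggag
Fhl2, start 2: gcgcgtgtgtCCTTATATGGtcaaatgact

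Ankrd1 holds the TEAD site at 2 places, 210 and 123 bases before its start, and Srf holds the CArG box at 2 places, 82 and 62 bases before its start. The single site of Ccn1 begins 103 bases before the start, that of Amotl2 65 bases and that of Yap1 141 bases. In Lats2 the site begins at base 5 after the start. The boxes of Fhl2 begin 96 bases before start 1 and 31 bases before start 2.

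**Figure D1:**
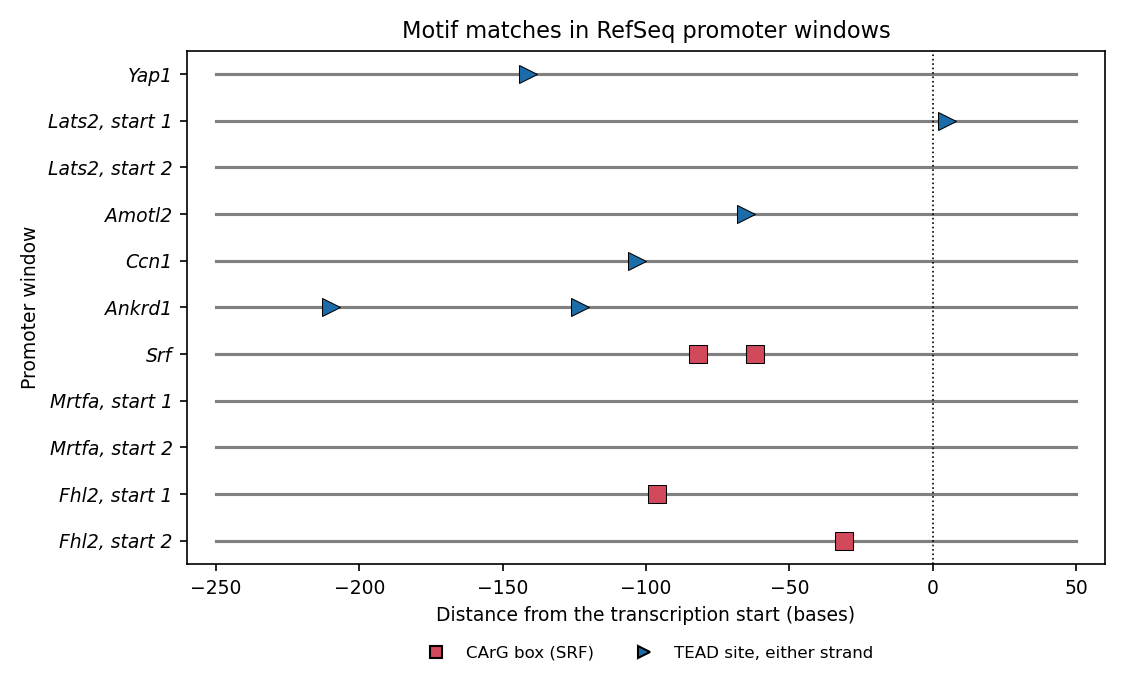
Each grey line is a RefSeq promoter window, with the distance from the transcription start in bases on the horizontal axis and 1 row per window. Squares mark CArG boxes and triangles TEAD sites on either strand, and the CArG boxes lie in Srf and Fhl2 while the TEAD sites lie in 5 other members.

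The arrays were scaled by the authors to a common trimmed mean of 500, and their median signals were 76.6 in cKO1, 64.4 in cKO2, 81.6 in KO1 and 64.9 in KO2. Kdm6a, the targeted gene, read 658 in cKO1, 415 in cKO2, 265 in KO1 and 198 in KO2, a log2 fold change of -1.17 that did not pass (limma, adjusted p = 0.088). It passed with each array centred on its median (adjusted p = 0.0091), without cKO2 (adjusted p = 0.0157) and without KO1 (adjusted p = 0.00916), and was -0.57 (adjusted p = 0.522) with its probe sets averaged. The positions of its probes relative to the deletion were not used here, so this checks the labels in part. The embryonic stem cell markers Pou5f1 and Sox2, which maintain pluripotency, were bright on all arrays, at 10179 to 11273 and at 8652 to 11669. Signals are linear MAS5 intensities, and fold changes are differences of log2(signal + 4.79). The brightest probe set stands for a gene unless another is named, and signals of different probe sets are not compared with each other. In bulk RNA, fewer cells of a type and less RNA per cell cannot be told apart.

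None of the 10 genes was called in limma, where a call means an adjusted p under 0.05, although all 10 signals were lower on average in the KO lines. All 10 were bright enough to be tested, 0 were called, and adjusted p-values ran from 0.254 to 0.936. Across the 10916 genes tested, 2.21% were called, 1.57% as lower in KO (171 of 241 calls, or 266 of 328 with each array centred on its median). Of the 22 member probe sets 18 could be tested on their own, 0 were called and 5 had an unadjusted p under 0.05, where the shares of all probe sets tested were 1.22% and 11.3%. At an unadjusted p under 0.05, 2 members were lower (Thbs1 and Ankrd1), and 7.90% of all genes were lower at that level and 13.8% differed in either direction. The log2 fold change was negative for 10 of 10 members and for 48.6% of all genes, with a median of -0.67 over the members and 0.01 over all genes. Both KO values lay below both cKO values for 4 members (Thbs1, Ankrd1, Yap1 and Lats2), as they did for 21.2% of all genes, and the groups overlapped for the other 6.

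**Figure D2:**
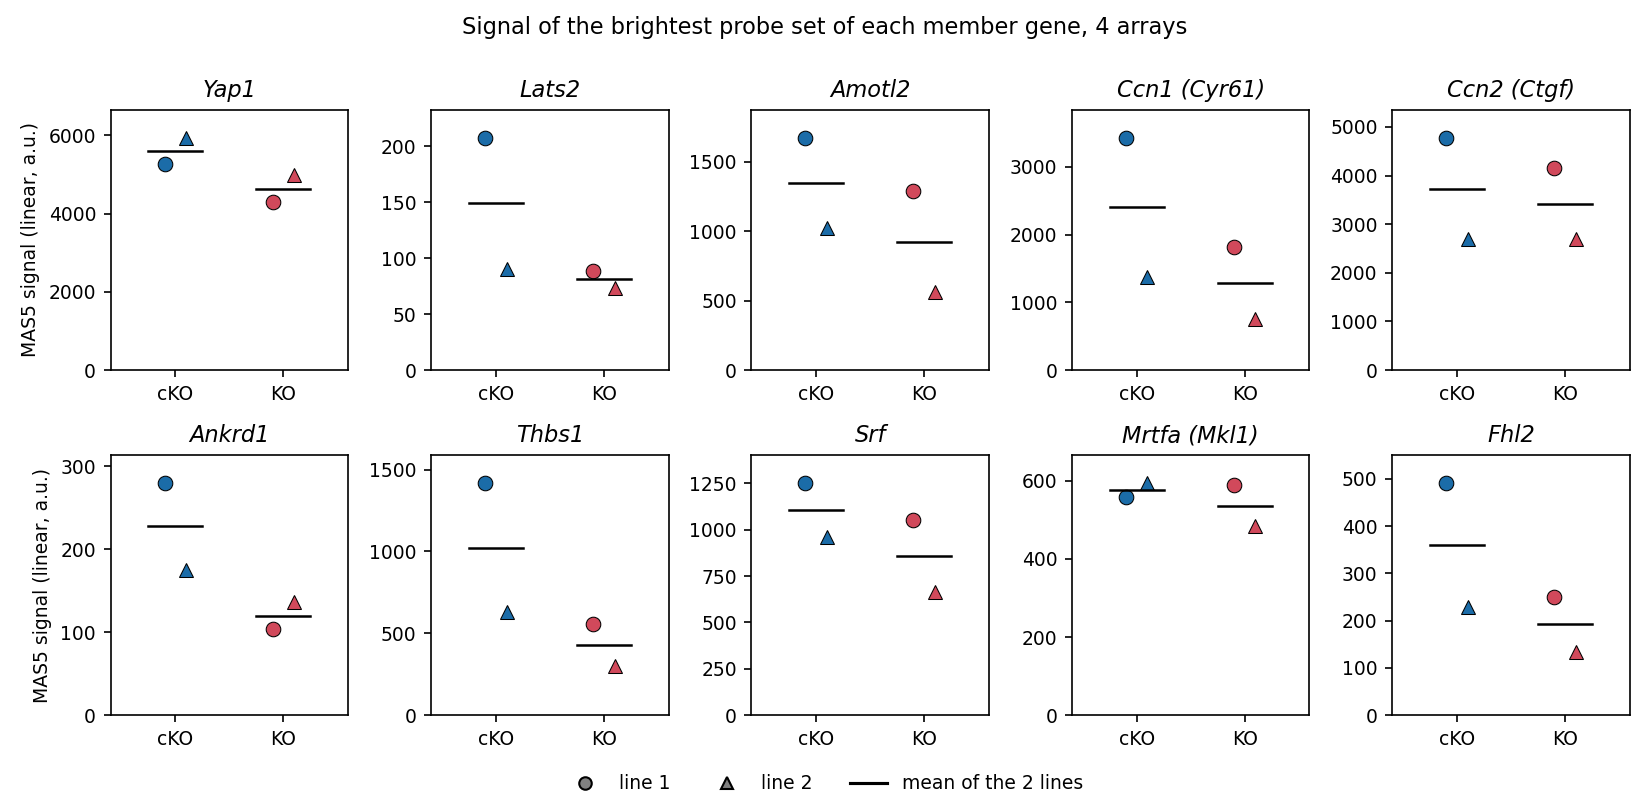
Linear MAS5 signal of the brightest probe set of each of the 10 genes (vertical axis, arbitrary units from 0) in the 2 cKO and 2 KO lines (circles, line 1; triangles, line 2; bars, the mean of the 2 lines). The groups are separate for Yap1, Lats2, Ankrd1 and Thbs1, and line 1 reads above line 2 in both groups for 7 of the genes.

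Among the regulators of the YAP pathway, Yap1 itself was bright and varied little. It read 5263 in cKO1, 5945 in cKO2, 4285 in KO1 and 4980 in KO2, with means of 5604 ± 482 and 4633 ± 492 (SD, n = 2 each). Both KO lines were below both cKO lines, by a small margin. Its log2 fold change was -0.28 (95% interval -0.58 to 0.03, limma, adjusted p = 0.424), which leaves room for a fall of up to -0.58 and for a rise of up to 0.03. A second Yap1 probe set read 462, 425, 285 and 382 in cKO1, cKO2, KO1 and KO2, again with the KO lines lower than the cKO lines.

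Lats2, the Hippo kinase that inhibits YAP and is itself a YAP target, was dim. Its brightest probe set read 208 in cKO1, 90.5 in cKO2, 88.6 in KO1 and 73.6 in KO2, so that cKO1 stood apart and cKO2 lay next to the KO lines. Its log2 fold change was -0.73 (SE 0.42, limma, adjusted p = 0.537). Without cKO1 it was -0.15, and without cKO2 it was -1.31. The second brightest probe set read 123 in cKO1, 82.5 in cKO2, 189 in KO1 and 43.6 in KO2, with the highest and the lowest value both in KO. The other 4 Lats2 probe sets averaged less than the 77.7 required for testing, near background, and 1 of them was the single probe set of all 22 with a positive log2 fold change, at signals of 17.6 or less. The probe sets of Lats2 therefore give no common size for its difference.

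Amotl2, a junctional scaffold that binds YAP and is induced by it as negative feedback, read 1676 in cKO1, 1023 in cKO2, 1287 in KO1 and 565 in KO2. KO1 lay above cKO2, so the groups overlapped. The means were 1349 ± 461 and 926 ± 510 (SD, n = 2 each), and the log2 fold change was -0.61 (95% interval -1.54 to 0.31, limma, adjusted p = 0.59). Without KO1 it was -1.20 (adjusted p = 0.0158), a call, where 3.98% of all genes were called, and without KO2 it was -0.02. Over its 14 alternatives the adjusted p ran from 0.0158 to 0.991.

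Of the direct YAP targets, Ccn1 and Ccn2, matricellular proteins of the same family, differed in how far their means lay apart. Ccn1 read 3433 in cKO1, 1372 in cKO2, 1814 in KO1 and 752 in KO2. Each line 1 read more than its line 2, and KO1 stood above cKO2. For Ccn1 the log2 fold change was -0.89 (95% interval -2.07 to 0.29, limma, adjusted p = 0.53), with means of 2403 ± 1457 and 1283 ± 751 (SD, n = 2 each). Leaving out KO1 gave -1.52 with an adjusted p = 0.0171, leaving out cKO2 gave -1.55 with an adjusted p = 0.0458, leaving out cKO1 gave -0.23, and the adjusted p of its 14 alternatives ran from 0.00466 to 0.892.

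The 4 probe sets of Ccn1 separated the groups differently. The one above and a second at 2566, 888, 1451 and 542 in cKO1, cKO2, KO1 and KO2, both overlapped between the groups. The third read 583, 273, 199 and 139 and the fourth 546, 245, 203 and 155 in the same order. There both KO values were below both cKO values, as they were for 16.8% of all 34958 probe sets naming 1 gene. Fitted with every probe set on its own, the third had a log2 fold change of -1.24 and the fourth of -1.03 (limma, adjusted p = 0.222 and 0.338). The gap between KO lines 1 and 2 was 1.26 and 1.41 (log2) in the first pair of probe sets and 0.50 and 0.38 in the other.

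Ccn2 read 4782 in cKO1, 2686 in cKO2, 4159 in KO1 and 2688 in KO2. Line 2 gave nearly the same value in both groups, and the means of 3734 ± 1482 and 3423 ± 1040 (SD, n = 2 each) lay closer than the lines within a group. Its log2 fold change was -0.10 (95% interval -0.81 to 0.61, limma, adjusted p = 0.936), and the interval leaves room for a change in either direction. The value was positive without cKO1 (0.32) and without KO2 (0.21).

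Ankrd1, a nuclear ankyrin-repeat protein first known from heart muscle and a standard YAP reporter gene, read 280 in cKO1, 175 in cKO2, 103 in KO1 and 136 in KO2. Its second probe set read 257, 165, 122 and 129 in the same order. In both probe sets the KO lines lay below the cKO lines and did not repeat the line 1 excess seen in cKO. The log2 fold change was -0.87 (95% interval -1.60 to -0.15), a level 1.90-fold lower in KO that had an unadjusted p = 0.0245 and missed after adjustment (limma, adjusted p = 0.26). Without cKO1 the log2 fold change was -0.54, and without cKO2 it was -1.20.

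Thbs1, which encodes thrombospondin-1, a secreted matrix protein and a target of both YAP and SRF, had the largest difference of the 10 genes. It read 1420 in cKO1, 627 in cKO2, 555 in KO1 and 299 in KO2, with means of 1024 ± 560 and 427 ± 181 (SD, n = 2 each) that were 2.40-fold apart. All KO values were under all cKO values, with KO1 close to cKO2. Thbs1 had a log2 fold change of -1.20 (95% interval -2.19 to -0.22, limma, adjusted p = 0.254). It passed at -1.25 with each array centred on its median (adjusted p = 0.0243). It also passed when cKO2 was left out (-1.79, adjusted p = 0.00884, with 2.40% of all genes called) or KO1 was (-1.64, adjusted p = 0.00819), and was -0.62 when cKO1 was. The adjusted p of its 14 alternatives ran from 0.00529 to 0.542. The second Thbs1 probe set read 305, 122, 133 and 77.7 in cKO1, cKO2, KO1 and KO2, and there KO1 lay above cKO2.

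On the SRF side, Srf itself read 1254 in cKO1, 962 in cKO2, 1054 in KO1 and 666 in KO2. The groups overlapped, and the log2 fold change was -0.39 (95% interval -0.98 to 0.20, limma, adjusted p = 0.592). A second Srf probe set read 806, 633, 882 and 498 in cKO1, cKO2, KO1 and KO2, with a log2 fold change of -0.11. Mrtfa, the actin-regulated coactivator of SRF, read 559 in cKO1, 595 in cKO2, 589 in KO1 and 484 in KO2. Its means of 577 ± 25.2 and 536 ± 74.7 (SD, n = 2 each) gave a log2 fold change of -0.11 (95% interval -0.53 to 0.30, limma, adjusted p = 0.864), which was 0.03 without KO2. By the larger of the gaps between lines in cKO and in KO, Mrtfa and Yap1 varied least of the members.

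Fhl2, a LIM-only protein that is an SRF target and binds SRF, read 492 in cKO1, 229 in cKO2, 250 in KO1 and 134 in KO2. KO1 lay just above cKO2. The means of 360 ± 186 and 192 ± 82.1 (SD, n = 2 each) gave a log2 fold change of -0.86 (95% interval -1.84 to 0.13, limma, adjusted p = 0.444). With 1 array left out it ran from -1.40 (without cKO2) to -0.31 (without cKO1).

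**Figure D3:**
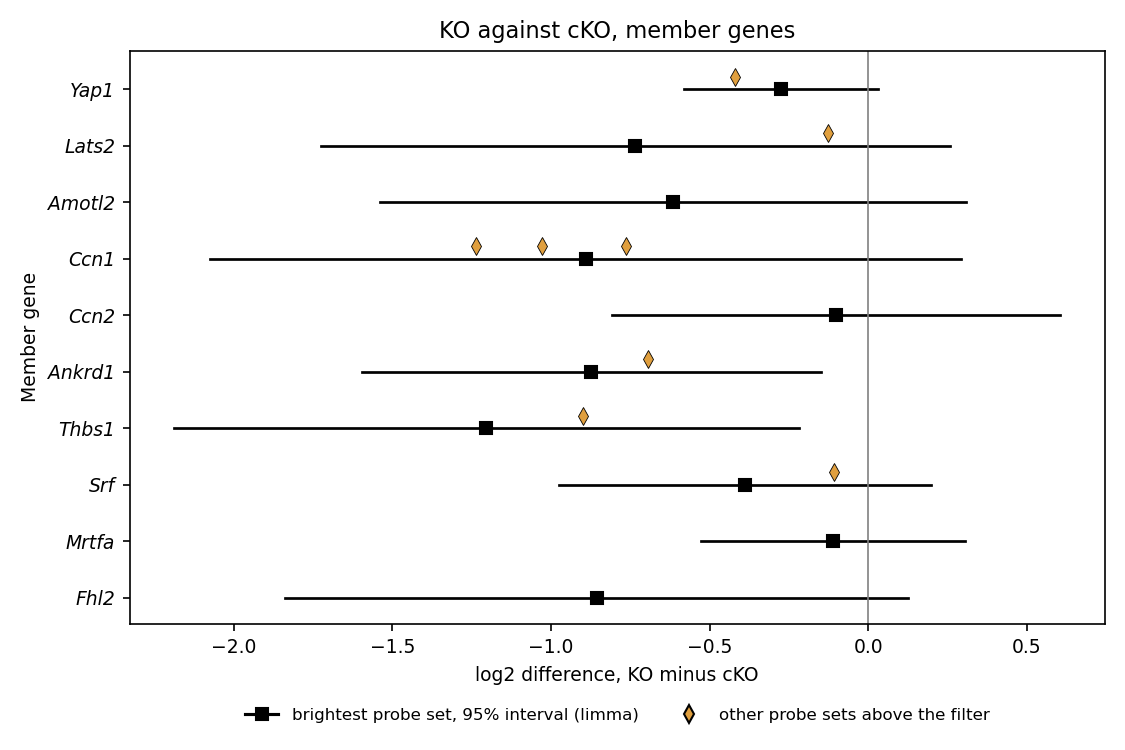
Log2 difference between KO and cKO (horizontal axis) for the 10 genes, with squares and lines for the brightest probe set and its 95% interval in limma and diamonds for other probe sets above the filter. All squares lie below 0, and the intervals of Thbs1 and Ankrd1 are the only ones that do not reach 0, before any adjustment for the number of genes.

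Lines of the same group also differed in these genes. For 7 of the 10 members the larger of the gaps between lines in cKO and in KO exceeded the difference between the group means (log2). The exceptions were Ankrd1, Thbs1 and Yap1. The larger of 2 gaps between single arrays would often exceed a difference between 2-line means in genes without a group difference. The share over all genes was not counted, so this count does not set the members apart. Line 1 read above line 2 in both groups for 7 members (Ccn1, Ccn2, Amotl2, Thbs1, Lats2, Srf and Fhl2), as it did for 37.3% of all genes tested. The median log2 difference of line 1 over line 2 was 0.77 in cKO and 0.64 in KO over the members, against 0.00 and 0.02 over all genes. The widest gaps of each group were those of Ccn1 (1.32 in cKO, 1.26 in KO). Yap1 went the other way in both groups (-0.18 and -0.22), and Mrtfa (-0.09 and 0.28) and Ankrd1 (0.66 and -0.39) changed sign between them. The median signal of the whole array was also higher in line 1 than in line 2 of each group, and its part in these gaps was not tested.

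**Figure D4:**
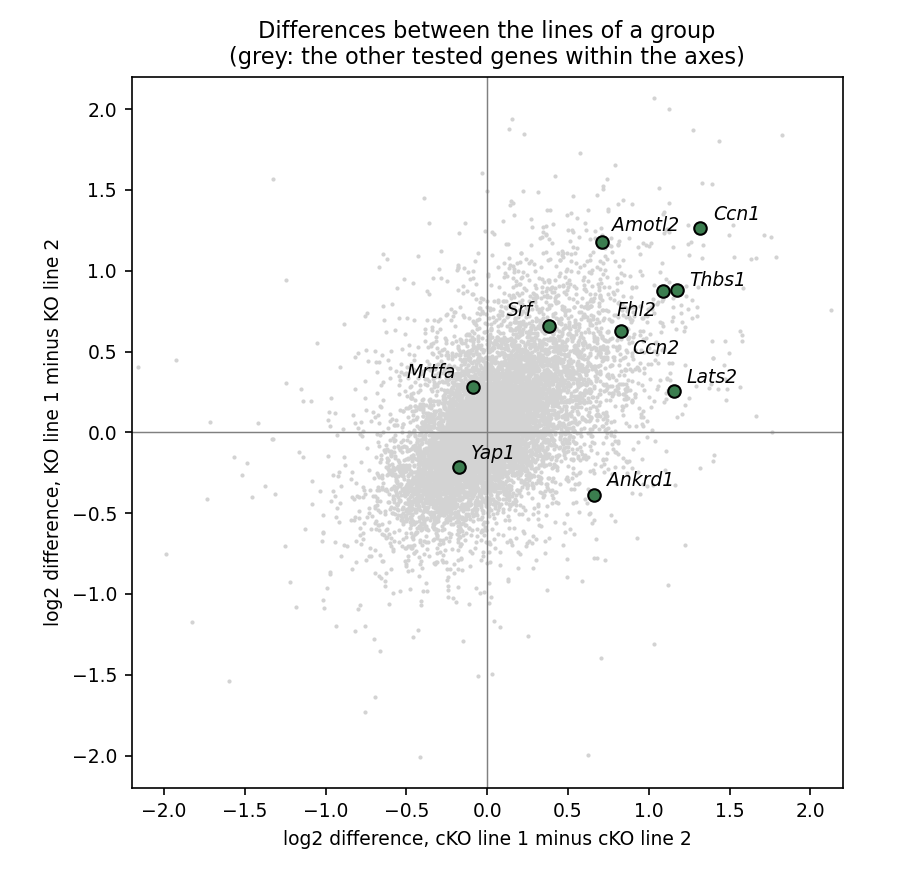
Log2 difference of line 1 over line 2 in the cKO group (horizontal axis) and in the KO group (vertical axis) for the 10 members (labelled points) and the other tested genes (grey). The upper right corner, where line 1 is higher in both groups, holds 7 members, and Ccn1 is the farthest out.

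Markers of fibroblasts, cells that express several of these genes and on which the lines had been kept, also read less in KO. Of 20 listed markers 19 had a probe set and 12 were bright enough to test. All 12 had a negative log2 fold change (48.6% of all genes tested), with a list median of -0.76. Of these, Col3a1 (67.8 in KO1 and 67.0 in KO2), Dcn (67.1 and 61.9) and Postn (84.9 and 66.5) were bright enough to test only through cKO, by mean log2 signal. The sizes of their falls are therefore uncertain, and these genes are part of the counts and of the median. Both KO values lay below both cKO values for 10 of the 12 (21.2% of all genes). At an unadjusted p under 0.05 in limma were 9 (13.8% of all genes), and 2 were called lower (1.57% of all genes). These 2 were the collagen gene Col5a1 (-1.43, limma, adjusted p = 0.0293) and the surface protein gene Thy1 (-1.20, adjusted p = 0.0481). The call of Col5a1 was lost when cKO1 was left out (-1.22). That of Thy1 was lost when cKO2 (-1.04) or KO2 (-1.03) was. Both were lost with no filter, without the variance trend and with probe sets averaged (limma, adjusted p = 0.0563 for Col5a1 and 0.0566 for Thy1). With every probe set fitted on its own, the call of Thy1 was lost (limma, adjusted p = 0.0644). The summed signal of the 19 markers was 8198 in cKO1, 6662 in cKO2, 4186 in KO1 and 4739 in KO2. No marker was at 0, and 7 were too dim to test. Of these Col6a1, Pdgfra, Fap and Twist2 had both KO values below both cKO values, Lum and Pdgfrb overlapped, and Prrx1 was higher in KO (30.7 in cKO1, 31.0 in cKO2, 60.1 in KO1 and 53.8 in KO2). Fstl1, a secreted glycoprotein gene, made up much of that sum (1972 in KO1 and 2542 in KO2). Line 1 read above line 2 in both groups for 7 of the 12 tested markers, 7 of the 10 members and 37.3% of all genes tested. The median log2 gap over the markers was 0.49 in cKO and 0.08 in KO. The part of fibroblast RNA in the difference between groups was not tested.

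The wider Hippo and YAP pathway was read from lists of genes chosen by role. These lists, and that of the fibroblast markers, were chosen with earlier results of these data known, so their counts are descriptions. The kinases, adaptors and upstream inputs of the Hippo pathway had 19 of 22 genes tested, with 0 called in limma. At an unadjusted p under 0.05 were 4 (13.8% of all genes), and 10 were negative (48.6% of all genes), with a median of -0.06. The smallest p-values were those of the angiomotins Amotl1 (log2 fold change -0.73, adjusted p = 0.103) and Amot (-0.78, adjusted p = 0.136), scaffolds that hold YAP at junctions and relatives of Amotl2. Amotl1 read 1697 in cKO1, 1353 in cKO2, 979 in KO1 and 854 in KO2, and Amot 849, 594, 409 and 414, in both cases with the groups apart. With its probe sets averaged Amot was at -0.29 (adjusted p = 0.812).

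Among the DNA-binding partners of YAP, Tead2 fell. It read 950 in cKO1, 911 in cKO2, 422 in KO1 and 412 in KO2, with lines of a group nearly equal. Tead2 had a log2 fold change of -1.15 (SE 0.16, limma, adjusted p = 0.0198), a 2.23-fold lower level, and without the variance trend the call was lost (adjusted p = 0.0536). It was the single gene called of 6 tested among 9 listed, where 2.21% of all genes were called, and the list median was -0.34. The list also holds the YAP paralogue Wwtr1 (-0.28) and Tead1 (0.09), named after their values were seen.

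Other commonly used YAP targets had 21 of 28 genes tested, with 2 lower, 0 higher and 19 not called. Of the 21, 17 were negative and 11 had an unadjusted p under 0.05 in limma, with a median of -0.60 against 0.01 over all genes. Over all genes 1.57% were called lower, 48.6% were negative and 13.8% had an unadjusted p under 0.05. The 2 called genes were Igfbp3 and Nt5e. Igfbp3, a secreted binding protein for insulin-like growth factors, had a log2 fold change of -1.54 (limma, adjusted p = 0.0216, with cKO at 1028 ± 263 and KO at 346 ± 33.2, SD, n = 2 each). Nt5e, the ectonucleotidase CD73, was at -3.64 (adjusted p = 0.0297). Its KO signals of 41.8 and 8.17 were near background, so the size of its fall is uncertain. Nt5e was bright enough to test only through cKO. So, by mean log2 signal, were Tgfb2 (64.6 in KO1 and 53.0 in KO2) and Myof (87.9 and 57.1), which are among the negative genes. Igfbp3 missed when its probe sets were averaged (adjusted p = 0.053), Nt5e missed with no filter (adjusted p = 0.0595), and without the variance trend both missed (adjusted p = 0.0702 and 0.0775). With 1 array left out, the log2 fold change ran from -1.80 to -1.28 for Igfbp3 and from -4.56 to -2.71 for Nt5e. Of the 12 tested genes of the TGF-beta pathway, which also drives Ccn2 and Thbs1, 0 were called in limma. At an unadjusted p under 0.05 were 4 (13.8% of all genes), and the median was -0.33. The smallest p-values were those of Tgfbi (2.06-fold lower in KO, adjusted p = 0.159) and Tgfbr3 (log2 fold change -1.10, adjusted p = 0.168). Both were near background in KO, Tgfbi at 75.6 in KO1 and 77.0 in KO2 and Tgfbr3 at 54.1 in KO1 and 63.4 in KO2. They were bright enough to test only through cKO, as was Tgfb2, also on this list, so these sizes are uncertain. The other CCN and thrombospondin genes had 2 of 8 tested, Ccn4 (-1.30, adjusted p = 0.117) and Thbs3 (-0.84, adjusted p = 0.231). Ccn4 passed with centring (adjusted p = 0.0173), and Thbs3 passed without cKO1 (adjusted p = 0.0482) and was -0.50 without cKO2.

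Among the cytoskeletal targets that SRF reaches through MRTF, several genes of actin filaments fell in KO. This list too was chosen with earlier results of these data known, so its counts are a description. Of 32 listed genes 31 were tested, 9 were lower, 0 higher and 22 not called, with a median of -0.58. Of the 31, 29 were negative and 18 had an unadjusted p under 0.05 in limma. Actc1 (77.1 in KO1 and 48.2 in KO2) and Filip1l (80.1 and 58.7), among the negative genes, were bright enough to test only through cKO, by mean log2 signal. Over all genes 1.57% were called lower, 48.6% were negative and 13.8% had an unadjusted p under 0.05. Cnn1 (calponin, which binds actin in smooth muscle) read 885 in cKO1, 847 in cKO2, 151 in KO1 and 190 in KO2 (log2 fold change -2.32, limma, adjusted p = 0.00541). Tagln (transgelin, -1.76, adjusted p = 0.00553), the skeletal actin gene Acta1 (-1.74, adjusted p = 0.0345) and Csrp1, a LIM protein of the cytoskeleton (-1.38, adjusted p = 0.0195), followed. For Cnn1, Tagln and Acta1, KO1 read below KO2, the reverse of Ccn1, Thbs1 and Srf, while Csrp1 read higher in KO1 (1017) than in KO2 (806). Over the whole list, line 1 read above line 2 in both groups for 18 of the 31 genes, against 37.3% of all genes tested. The count of 9 was 5 with probe sets averaged per gene and 1, Cnn1 alone, without the variance trend.

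Immediate-early genes, which SRF reaches through ternary complex factors, had 10 of 13 genes tested and 0 called in limma. At an unadjusted p under 0.05 was 1 (13.8% of all genes), and 8 were negative (48.6% of all genes), with a median of -0.25. Atf3, a stress-induced transcription factor, had the smallest p (log2 fold change -1.78, adjusted p = 0.0957), at 392 in cKO1, 221 in cKO2, 120 in KO1 and 56.2 in KO2, and Dusp1, a phosphatase of MAP kinases, came next (-0.26, adjusted p = 0.568). Atf3 passed with centring (adjusted p = 0.00171), without cKO2 (adjusted p = 0.0249) and without KO1 (adjusted p = 0.000939). Line 1 read above line 2 in both groups for 9 of the 10 immediate-early genes, against 37.3% of all genes tested. The cofactors of SRF had 5 of 6 genes tested, 0 called and 0 at an unadjusted p under 0.05, with a median of 0.12 and the smallest p-values in Elk1 (0.90, adjusted p = 0.548) and Scai (0.23, adjusted p = 0.72). Elk1 read 36.2 in cKO2 and 125 to 136 on the other arrays, and was 0.07 without cKO2 and 1.73 without cKO1. Scai was 0.08 without cKO2 and 0.38 without cKO1. Of the 10 embryonic stem cell markers 0 were called in limma and 4 had an unadjusted p under 0.05 (13.8% of all genes). Of the 10, 7 were positive and 3 negative (48.6% of all genes negative), with a median of 0.30. Zfp42 (0.51, adjusted p = 0.102) and Sox2 (0.37, adjusted p = 0.1) had the smallest p-values.

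**Figure D5:**
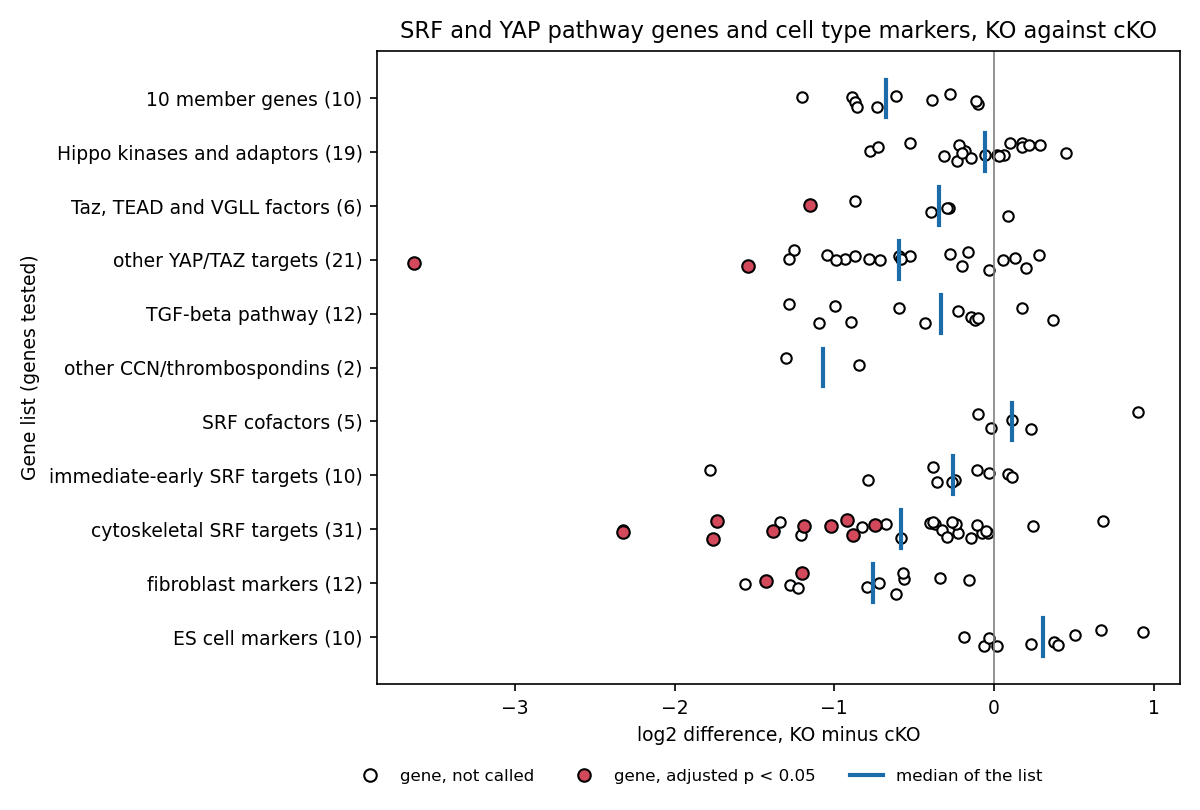
Log2 difference between KO and cKO (horizontal axis) of every tested gene of each list (rows, with the number tested), red where the adjusted p in limma is under 0.05, with the list median as a blue bar. The 10 member genes hold no red point, and the cytoskeletal SRF targets hold 9.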

How the data were processed

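Total RNA of 4 embryonic stem cell lines was hybridised to Affymetrix mouse expression arrays. Per the submitters' processing notes MAS5 made the deposited values, a linear intensity for each probe set, whose settings and detection calls were not used here. Gene names came from the platform annotation, updated by Entrez identifier through a RefSeq table (GRCm38.p6). Of 45101 probe sets, 34958 named 1 gene and were used, so 2 that name a member beside another gene were left out. The probe set with the highest mean log2 signal stood for a gene, and the lower 40% of genes (7278, below a signal of 77.7) were left out. The pseudocount of 4.79 was the 10th percentile of all values. KO was compared with cKO in limma 3.58.1 (R 4.3.3; lmFit, eBayes with a variance trend, 2 residual and 5.15 prior degrees of freedom), adjusted by Benjamini-Hochberg over 10916 genes. The procedure was tested on simulated data. The number of arrays, 2 per group, limits the precision.

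Named are all 10 members, Kdm6a and, from each further list, up to 4 called genes by size of change, or the 2 of smallest p in a list with no call; others are stated as named after their values were seen or stand as values of a marker list. Members and lists were chosen with earlier results of these data known. Alternatives were other pseudocounts, filters and normalizations, averaging over the probe sets of a gene, probe sets fitted singly, no variance trend, the line number as a block and each array left out. Summaries used Python 3.11.15, pandas 2.3.3 and numpy 2.4.6.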

Additional observations from a re-analysis of the deposited data

How the results depend on the processing

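With 2 lines per group, a single array decides whether Thbs1, Ccn1 or Amotl2 is called. Members called numbered 0 in 10 of the 14 alternatives, 1 with each array centred on its median (Thbs1), and 0 to 3 with 1 array left out, where 2.40% of genes were called without cKO2 and 3.98% without KO1. The lone line of a group was then assumed to vary like the other group's. With the line number as a replicate block 4 members were called (Ccn1, Thbs1, Fhl2 and Amotl2), beside 1048 genes or 9.60% of all. The labels do not say that the numbers pair the lines. The line 1 over line 2 differences in cKO and KO correlated across genes at 0.52. Median signals of the whole array were also higher on both line 1 arrays, while the median line 1 over line 2 difference over the tested genes was 0.00 in cKO and 0.02 in KO. With 1 array per line, paired lines and other differences between arrays cannot be told apart here.

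Genes called, 241 here, were 147 with no filter, 157 with the lower 60% left out, 129 with probe sets averaged per gene, 28 without the variance trend, and 228 to 434 with 1 array left out. With centring 328 were called, 266 of them lower, against 171 lower of 241. The log2 fold change of Ccn2 ran from -0.52 to 0.32 and that of Mrtfa from -0.25 to 0.03 with 1 array left out (Ccn2 0.32 without cKO1 and 0.21 without KO2, Mrtfa 0.030 without KO2), and the other 8 members stayed negative in every alternative in which they were tested. With the lower 60% left out 7 members were tested, and with the mean of probe sets 9. Of 18 member probe sets tested on their own 0 were called, with 5 at an unadjusted p under 0.05.

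Called genes of the lists ran over the 14 alternatives from 1 to 18 for cytoskeletal SRF targets, 0 to 9 for other YAP targets, 0 to 6 for fibroblast markers, 0 to 5 for stem cell markers, 0 to 4 for Hippo genes and 0 to 2 for TEAD partners, immediate-early genes, TGF-beta genes and CCN and thrombospondin genes, and were 0 for SRF cofactors in all. Highest values came with the block, except for TEAD partners (without cKO2). Causes of these changes were not tested. Signals near 77.7, such as those of Lats2 in KO, are close to background.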

Other observations

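Egr1 and Fos, immediate-early transcription factors that SRF controls, had wide gaps between the lines of a group, and were picked out after their values were seen. Egr1 read 2191 in cKO1, 903 in cKO2, 1560 in KO1 and 423 in KO2 (log2 fold change of KO over cKO -0.79, limma, adjusted p = 0.677). Fos read 338, 132, 306 and 102 in the same order (-0.25, adjusted p = 0.915). In both, each line 1 stood above both lines with number 2, the order also seen in Ccn1, Ccn2, Amotl2, Srf and Fhl2.

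A probe set that the annotation assigns to both Pald1 and Thbs1 read 2730 in cKO1, 1004 in cKO2, 1302 in KO1 and 857 in KO2. One assigned to both Xpo4 and Lats2 read 427, 308, 350 and 380 in the same order.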
